A study of Mus musculus with 12 samples.

Results

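The Wnt ligands, the Frizzled receptors and the Sfrp and Dkk secreted antagonists were followed in C2C12 cells, a mouse myoblast line, at the start and at the end of differentiation, with and without overexpression of PPARγ. Genes were taken by symbol, as *Wnt*, *Fzd*, *Sfrp* or *Dkk* followed by a number, and this gave 37 of the 46983 genes in the table, with 19 ligands, 10 Frizzled receptors, 4 Sfrp genes and 4 Dkk genes. RNA was sequenced from 4 groups of 3 libraries. WT_0d and WT_5d are cells labelled wild type, whose libraries are titled after the PiggyBac vector PB-IP, taken on the starting day (0d) and on day 5 of differentiation (5d). PPARγ/+_0d and PPARγ/+_5d are C2C12 cells that received that vector with the PPARγ coding sequence and were selected with puromycin, on the same days. The design note calls the cells inducible and the controls uninduced. The inducing agent, the number of clones behind the PPARγ/+ cells and whether the WT cells carried the empty vector are not given in the sources used here. Every group had the C2C12 background. The 3 libraries of a group are described as biological replicates.

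Wnt proteins are lipid-modified, secreted ligands that bind Frizzled receptors, either together with Lrp5 or Lrp6 to stabilise β-catenin or with Ror and Ryk receptors to signal through planar polarity and calcium. Sfrp proteins carry a Frizzled-like domain and bind Wnt ligands outside the cell, while Dkk proteins of the classical kind bind the Lrp co-receptors. In mesenchymal precursors, Wnt10b is known as a ligand that holds back adipogenesis, and PPARγ is the master transcription factor of fat cell formation. Several Wnt ligands are known to act on myoblasts, where the balance of β-catenin dependent and independent signals changes as cells fuse into myotubes.

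The libraries held between 15557950 and 22013357 fragments on genes. *Pparg* lay between 3.12 and 7.56 FPKM (fragments per kilobase of transcript, scaled to the mapped fragments of the library) in the 6 WT libraries and between 28 and 92.7 FPKM in the 6 PPARγ/+ libraries, so the overexpression was seen in every library labelled with it. The myoblast and myotube markers (7 genes) were present, and their summed FPKM went from a range of 133 to 298 in WT_0d to 839 to 3621 in WT_5d, and from 60.8 to 95.7 in PPARγ/+_0d to 971 to 1135 in PPARγ/+_5d. In PPARγ/+_0d, 5 of the 7 reached 1 FPKM in a library. At the thresholds given below, 5 of the 7 rose from 0d to 5d in WT cells and 6 in PPARγ/+ cells, while *Myf5* fell in WT cells (log2 fold change -1.46). On 0d *Myf5* and *Des* were lower in PPARγ/+ than in WT (-1.58 and -1.41). The WT_5d libraries stood apart from each other, at sums of 3621, 2809 and 839 FPKM in replicates 1, 2 and 3, with replicate 3 below the PPARγ/+_5d libraries. Of 6 adipocyte markers, none reached 1 FPKM in a WT library (summed FPKM up to 0.0794), whereas the sum was 2.90 to 5.04 FPKM in PPARγ/+_0d and 13.3, 20.0 and 67.2 FPKM in PPARγ/+_5d, with *Lep* listed at 0 in every library. The sums of endothelial markers (4 genes, at most 0.115 FPKM) and osteoblast markers (3 genes, at most 0.349 FPKM) stayed near 0. Those of leukocyte markers (4 genes, at most 5.13 FPKM) and chondrocyte markers (3 genes, at most 25.7 FPKM) came almost wholly from *Cd68* and *Sox9*. In bulk RNA, fewer cells of a type and less RNA per cell cannot be told apart.

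A gene entered the tests when it reached 0.1 FPKM in at least 3 of the 12 libraries, which 24 of the 37 genes did, beside 18023 genes in all. Another 8 (*Dkk1*, *Dkk4*, *Fzd10*, *Wnt3a*, *Wnt7a*, *Wnt8a*, *Wnt8b* and *Wnt9b*) were listed at 0 in all 12 libraries, where a count of 0 allows up to 3 fragments per library, or between 0.0255 and 0.123 FPKM depending on the gene's length and the library's depth. The last 5 (*Sfrp5*, *Wnt1*, *Wnt16*, *Wnt2* and *Wnt3*) had a few fragments in some libraries and were left out by the filter. Thus C2C12 cells held transcripts of 10 ligands, 9 of the 10 Frizzled receptors, 3 Sfrp genes and 2 Dkk genes above the filter, and 18 genes had a mean of at least 1 FPKM in a group. The plot of FPKM by library gives the values of these 18 genes.

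**Figure D1:**
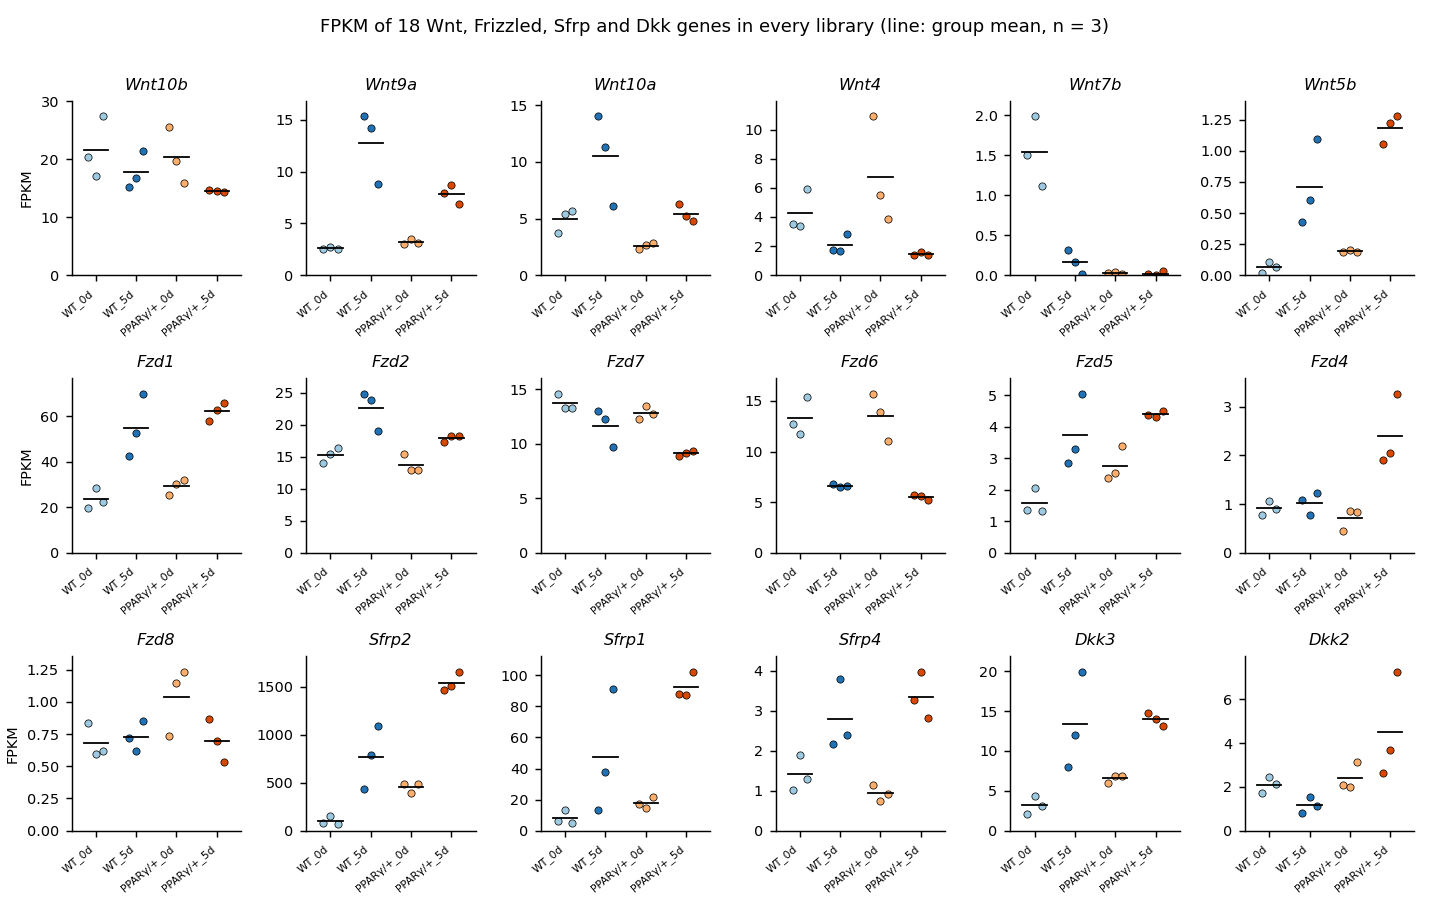
FPKM (vertical axes, linear from 0) of the 18 genes with a group mean of at least 1 FPKM, by group, with 1 point for each library and a line at the mean of 3. *Sfrp2* spans from 69.1 to 1652 FPKM, *Wnt7b* is above 1 FPKM only in the WT_0d libraries, and *Fzd6* on 5d lies below all its values on 0d in both cell types.

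From 0d to 5d more of the genes rose than fell in both cell types, among ligands, receptors and antagonists alike. In WT cells 9 of the 24 genes tested passed an unadjusted p-value of at most 0.05 with a fold change of at least 2. Among all genes tested the share was 16.5% (2970 of 18023). Of the 9, 8 rose (*Sfrp2*, *Wnt5b*, *Wnt9a*, *Sfrp1*, *Dkk3*, *Fzd1*, *Fzd5* and *Wnt10a*) and 1 fell (*Wnt7b*), against 8.94% and 7.53% of all genes. In PPARγ/+ cells 11 of the 24 passed, against 15.2% of all genes. Of these, 9 rose (*Sfrp1*, *Wnt5b*, *Sfrp2*, *Sfrp4*, *Fzd4*, *Wnt9a*, *Fzd1*, *Dkk3* and *Wnt10a*, against 9.11%) and 2 fell (*Wnt4* and *Fzd6*, against 6.06%). Both comparisons called 7 genes, all in the same direction (*Dkk3*, *Fzd1*, *Sfrp1*, *Sfrp2*, *Wnt10a*, *Wnt5b* and *Wnt9a*). Over the 24 genes tested, the median log2 fold change came to 0.38 (WT) and 0.52 (PPARγ/+), beside -0.08 and -0.10 over all genes tested. The filter let in genes that are low in one group, so these medians only describe the set.

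**Figure D2:**
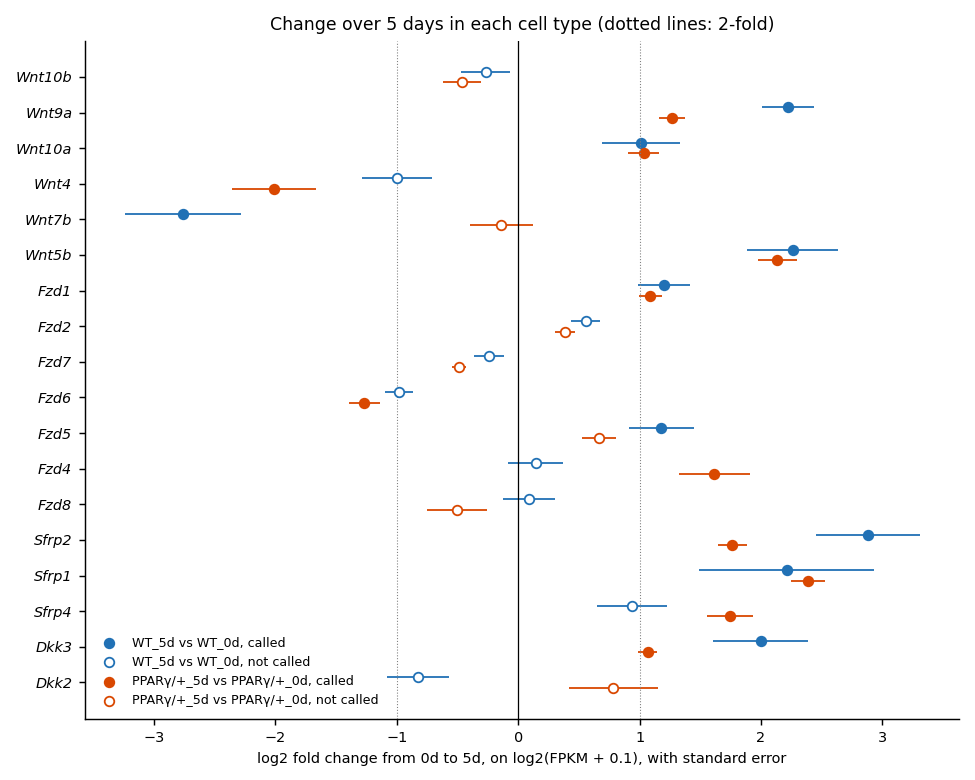
Log2 fold change from 0d to 5d (horizontal axis, on log2(FPKM + 0.1), with the standard error) of the 18 genes in WT cells (blue) and PPARγ/+ cells (orange), where filled points passed the threshold and open points did not. *Sfrp2*, *Sfrp1*, *Wnt5b* and *Wnt9a* lie right of the 2-fold line in both cell types. *Wnt7b* at -2.76 in WT cells lies far from its value in PPARγ/+ cells, where it was close to the detection limit on both days.

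Sequences just upstream of the start are given for 5 of these genes, as examples. *Sfrp2*, *Wnt9a* and *Fzd1* rose in both cell types. *Fzd4* and *Dkk2* had their highest group mean in PPARγ/+_5d, as did other members, and no rise called in WT cells. The sequences are the 250 bases before the RefSeq gene start on GRCm38.p6, 5′ to 3′ on the strand of the gene. Capitals mark the GC box GGGCGG and the MyoD-type E-box CAGCTG, searched on both strands, and overlapping GC boxes run together.
Sfrp2, chr3:83766071-83766320, plus strand: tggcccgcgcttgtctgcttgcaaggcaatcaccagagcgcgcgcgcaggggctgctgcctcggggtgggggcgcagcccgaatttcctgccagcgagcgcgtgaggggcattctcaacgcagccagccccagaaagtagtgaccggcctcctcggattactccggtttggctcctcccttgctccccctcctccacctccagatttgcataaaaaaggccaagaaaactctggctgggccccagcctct
Wnt9a, chr11:59306680-59306929, plus strand: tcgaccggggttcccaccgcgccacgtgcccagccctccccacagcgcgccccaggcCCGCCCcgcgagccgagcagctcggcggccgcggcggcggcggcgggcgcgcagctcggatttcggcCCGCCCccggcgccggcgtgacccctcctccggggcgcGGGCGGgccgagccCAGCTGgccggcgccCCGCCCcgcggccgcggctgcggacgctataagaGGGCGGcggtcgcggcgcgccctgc
Fzd1, chr5:4758217-4758466, minus strand: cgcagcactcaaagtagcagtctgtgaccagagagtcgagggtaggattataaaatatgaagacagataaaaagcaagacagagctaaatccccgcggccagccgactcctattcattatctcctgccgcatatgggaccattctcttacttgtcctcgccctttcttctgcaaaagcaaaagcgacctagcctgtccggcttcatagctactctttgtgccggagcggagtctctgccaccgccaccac
Fzd4, chr7:89404116-89404365, plus strand: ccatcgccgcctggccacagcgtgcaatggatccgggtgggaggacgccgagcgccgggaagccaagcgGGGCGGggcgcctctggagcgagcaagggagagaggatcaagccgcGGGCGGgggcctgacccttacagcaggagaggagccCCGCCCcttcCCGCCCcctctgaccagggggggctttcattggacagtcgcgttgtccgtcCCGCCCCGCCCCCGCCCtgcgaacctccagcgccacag
Dkk2, chr3:132085042-132085291, plus strand: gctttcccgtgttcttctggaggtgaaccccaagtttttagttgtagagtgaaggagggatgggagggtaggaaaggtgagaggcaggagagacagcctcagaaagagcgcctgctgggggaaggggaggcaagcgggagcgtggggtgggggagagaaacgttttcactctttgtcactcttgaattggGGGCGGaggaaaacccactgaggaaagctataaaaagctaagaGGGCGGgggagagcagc

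Of the 37 genes, 25 had such a promoter, with 28 windows in all since *Wnt5b* had 3 and *Wnt11* had 2. *Dkk3*, *Dkk4*, *Fzd2*, *Fzd3*, *Fzd6*, *Fzd8*, *Sfrp1*, *Sfrp4*, *Wnt10a*, *Wnt5a*, *Wnt7b* and *Wnt8a* had none. The GC box was found in 20 of the 28 windows (71.43%), among them *Wnt9a*, *Wnt4*, *Fzd4*, *Fzd5* and *Dkk2*, and in 32.75% of 32841 promoters of the same length. These windows were also richer in G and C, with a median of 69.4% beside 52.4% over all promoters. *Sfrp2* and *Fzd1*, which rose in both cell types, held no match to any of these motifs in this window. The E-box CAGCTG was in 2 windows (7.14%, *Wnt9a* and *Fzd10*), beside 13.0% of all promoters. A TCF/LEF motif (CTTTGAA or else CTTTGAT or else CTTTGTA or else CTTTGTT, on either strand) was in 4 windows (14.29%, of *Dkk1*, *Fzd7*, *Wnt11* and *Wnt5b*), beside 14.84% of all. The DR1 element that PPARγ binds, in its consensus form, was in none of the windows and in 0.03% of all promoters. A match is only a match of letters, and no match says only that these letters are not in this window.

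Among the ligands, *Wnt10b* was the most abundant in 11 of the 12 libraries, the exception being WT_5d replicate 1, where *Wnt9a* was level with it. *Wnt9a*, *Wnt10a* and *Wnt5b* rose with differentiation in both cell types, *Wnt7b* fell in WT cells and *Wnt4* fell in PPARγ/+ cells. *Wnt10b*, the ligand known to hold back fat cell formation, stood at 20.4, 17.1 and 27.4 FPKM in WT_0d, at 15.3, 16.8 and 21.4 in WT_5d, at 25.5, 19.7 and 15.9 in PPARγ/+_0d and at 14.7, 14.5 and 14.3 in PPARγ/+_5d. The PPARγ/+_5d values were the lowest, just under the lowest value of PPARγ/+_0d, and the WT groups overlapped. The log2 fold change from 0d to 5d in PPARγ/+ cells was -0.46 ± 0.16 (SE, limma adjusted p = 0.0492), below the 2-fold threshold, and *Wnt10b* was called in none of the comparisons.

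*Wnt9a*, a ligand known from joint formation, stood at 2.52, 2.73 and 2.52 FPKM in WT_0d and at 15.3, 14.2 and 8.78 in WT_5d. In PPARγ/+ cells the levels went from 3.0, 3.47 and 3.08 FPKM on 0d to 7.89, 8.68 and 6.89 on 5d. All 5d libraries lay above all 0d libraries in both cell types. The WT_5d libraries lay above those of PPARγ/+_5d, with replicate 3 at 8.78 FPKM just over the highest PPARγ/+_5d value of 8.68. On 5d the cell types were not called as different for *Wnt9a* (log2 fold change -0.67 ± 0.22, limma adjusted p = 0.324). Over the 5 days it rose by a log2 fold change of 2.22 ± 0.21 (SE) in WT cells and by 1.27 ± 0.11 in PPARγ/+ cells (limma adjusted p = 0.000771 and 0.00018). Their difference, the interaction coefficient, was -0.95 ± 0.25 and did not pass the adjusted threshold (limma adjusted p = 0.135), although it did without WT_5d replicate 3, at -1.20.

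*Wnt10a*, the nearest relative of Wnt10b, stood at 3.74, 5.43 and 5.65 FPKM in WT_0d, 14.0, 11.3 and 6.12 in WT_5d, 2.34, 2.63 and 2.82 in PPARγ/+_0d and 6.31, 5.20 and 4.80 in PPARγ/+_5d. On each day most WT libraries were above the PPARγ/+ libraries, with WT_5d replicate 3 inside the range of PPARγ/+_5d. From 0d to 5d it rose by 1.01 ± 0.32 (log2) in WT cells (limma adjusted p = 0.0506) and 1.03 ± 0.13 in PPARγ/+ cells (adjusted p = 0.000777), both barely over the 2-fold threshold. The WT call was lost without WT_0d replicate 1, WT_5d replicate 1 or WT_5d replicate 2 (0.83, 0.76 and 0.92), and the PPARγ/+ call without PPARγ/+_0d replicate 1 or PPARγ/+_5d replicate 1 (0.96 and 0.92). With 1 added to the FPKM both were lost (0.90 and 0.84).

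*Wnt4*, which can signal with or without β-catenin, stood at 3.49, 3.40 and 5.91 FPKM in WT_0d, 1.76, 1.66 and 2.82 in WT_5d, 10.9, 5.51 and 3.89 in PPARγ/+_0d and 1.39, 1.57 and 1.40 in PPARγ/+_5d. The 5d libraries were below the 0d libraries in both cell types without overlap, and PPARγ/+_0d was widely spread. It fell in PPARγ/+ cells, with a log2 fold change of -2.01 ± 0.34 (limma adjusted p = 0.00319), and in WT cells the log2 fold change of -0.996 ± 0.29 (adjusted p = 0.0366) ended just short of 2-fold. Without WT_0d replicate 1, WT_0d replicate 2 or WT_5d replicate 3 the WT value passed, at -1.11, -1.13 and -1.23.

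*Wnt5b*, a ligand of the β-catenin independent branch, was near the detection limit on 0d, with 1, 7 and 4 fragments in WT_0d and 12, 14 and 11 in PPARγ/+_0d. On 5d it reached 0.429, 0.605 and 1.09 FPKM in WT cells and 1.05, 1.23 and 1.28 FPKM in PPARγ/+ cells. All 5d libraries lay above those of 0d, and in every 0d library of PPARγ/+ the level (0.185 to 0.202 FPKM) was above the WT_0d libraries (0.0194 to 0.105 FPKM). This difference on 0d was not called (log2 fold change 0.88 ± 0.23, limma adjusted p = 0.103). *Wnt5b* rose by a log2 fold change of 2.26 ± 0.38 in WT cells and of 2.13 ± 0.16 in PPARγ/+ cells (limma adjusted p = 0.0051 and 0.000121), and with 1 in place of 0.1 added to the FPKM both dropped under 2-fold (0.67 and 0.87). Its sister gene *Wnt5a* stayed between 0.0395 and 0.248 FPKM.

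*Wnt7b* (chr15:85535437-85582473, minus strand, GRCm38), a ligand known for β-catenin signalling in epithelia, was the ligand that differed most between the cell types. It stood at 1.51, 1.99 and 1.12 FPKM in WT_0d (129, 221 and 114 fragments) and at 0.311, 0.164 and 0.0199 FPKM in WT_5d (35, 14 and 2 fragments). PPARγ/+_0d held 3, 5 and 2 fragments and PPARγ/+_5d 1, 0 and 4. All WT_0d libraries were thus above every other library, and in PPARγ/+ cells the gene was close to the detection limit on both days. It fell in WT cells, with a log2 fold change of -2.76 ± 0.48 (limma adjusted p = 0.00599), and on 0d PPARγ/+ was lower than WT by a log2 fold change of -3.62 ± 0.24 (adjusted p = 0.00497). By summed fragments per mapped fragment, the level in WT_0d was 49.5 times that in PPARγ/+_0d, with an exact 95% interval from counting error alone of 26.7 to 104 times. The size on the log2 scale rests on the value added to the FPKM, since it ranged from -5.45 to -1.28 over the alternatives on 0d, always in the same direction. An opposite-strand gene, *AU022754*, shares 324 exonic bases with *Wnt7b* and lay at 0.0290 FPKM or less.

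The remaining ligands were low. *Wnt6*, *Wnt2b* and *Wnt11* stayed below 1 FPKM in every library (at most 0.824, 0.564 and 0.173 FPKM) and were called in none of the comparisons. Several ligand genes sit next to each other, and such neighbours differed in level. *Wnt9a* on chromosome 11 lies 16.2 kb from *Wnt3a*, which was listed at 0 in all libraries, and *Wnt10b* on chromosome 15 lies 11.7 kb from *Wnt1*, which was at 0.0968 FPKM or less. *Wnt10a* (2.34 to 14.0 FPKM) lies 6.19 kb from *Wnt6* (0.220 to 0.824 FPKM) on chromosome 1. *Wnt9b* and *Wnt3*, 24.3 kb apart on chromosome 11, were both at or near 0.

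With FPKM summed over the 19 ligands, the pool was 36.0 ± 6.71 (SD, n = 3) in WT_0d, 45.2 ± 3.87 in WT_5d, 34.1 ± 8.03 in PPARγ/+_0d and 31.5 ± 1.35 in PPARγ/+_5d. Its make-up shifted over the 5 days in both cell types. *Wnt10b* made up 59.7% ± 4.95 of the pool in WT_0d and 39.95% ± 10.7 in WT_5d, and 59.7% ± 0.673 in PPARγ/+_0d and 46.1% ± 1.41 in PPARγ/+_5d, with no overlap between the days in either cell type. *Wnt9a* went from 7.36% ± 1.46 to 27.9% ± 5.69 in WT cells and from 9.70% ± 2.35 to 24.8% ± 1.98 in PPARγ/+ cells. These shares describe the libraries and were not tested.

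**Figure D3:**
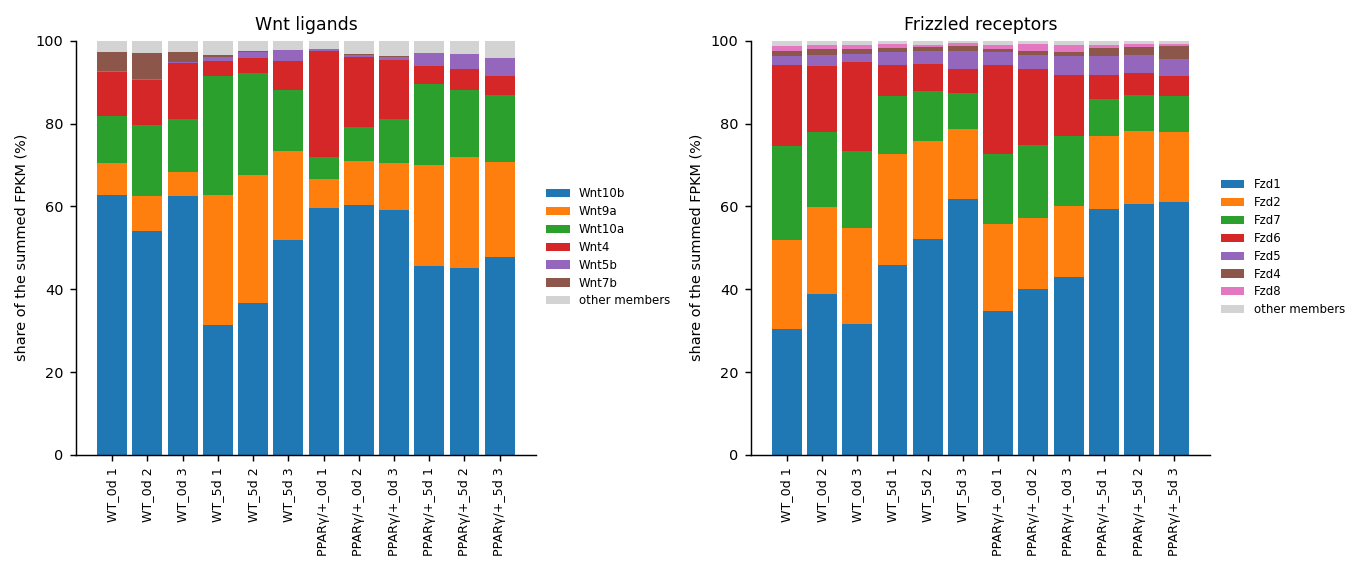
Share (%) of the summed FPKM of the Wnt ligands (left) and of the Frizzled receptors (right) held by each gene in each of the 12 libraries. The *Wnt10b* and *Fzd6* shares are smaller and the *Wnt9a* and *Fzd1* shares larger on 5d than on 0d in both cell types.

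Among the receptors, *Fzd1* was the most abundant in every library and rose in both cell types, and *Fzd6* fell and *Fzd4* rose in PPARγ/+ cells. *Fzd1*, a receptor for several ligands with and without β-catenin, stood at 19.5, 28.6 and 22.6 FPKM in WT_0d, 42.4, 52.5 and 69.8 in WT_5d, 25.5, 30.3 and 32.2 in PPARγ/+_0d and 58.1, 62.6 and 65.9 in PPARγ/+_5d. The days did not overlap in either cell type, and the cell types overlapped on both days. It rose by a log2 fold change of 1.20 ± 0.21 in WT cells and of 1.09 ± 0.10 in PPARγ/+ cells (limma adjusted p = 0.00665 and 0.000217). Without PPARγ/+_0d replicate 1 the second was 0.99, just under 2-fold.

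*Fzd6*, a receptor known from planar polarity in skin and hair, stood at 12.7, 11.7 and 15.4 FPKM in WT_0d, 6.83, 6.47 and 6.60 in WT_5d, 15.7, 13.9 and 11 in PPARγ/+_0d and 5.70, 5.57 and 5.21 in PPARγ/+_5d. Every 5d library was below every 0d library, and the 5d libraries of a group lay close together. It fell in PPARγ/+ cells, with a log2 fold change of -1.27 ± 0.13 (limma adjusted p = 0.000366). In WT cells the log2 fold change of -0.98 ± 0.11 (adjusted p = 0.0014) missed the 2-fold threshold by little, and it passed without WT_0d replicate 1, WT_0d replicate 2 or WT_5d replicate 1 (-1.01, -1.06 and -1.003).

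*Fzd4*, a receptor known for Norrin signalling in vessels, stood at 0.769, 1.07 and 0.903 FPKM in WT_0d, 1.08, 0.773 and 1.24 in WT_5d, 0.456, 0.864 and 0.833 in PPARγ/+_0d and 1.90, 2.04 and 3.26 in PPARγ/+_5d. The PPARγ/+_5d libraries were above all others, and the other 3 groups overlapped. The log2 fold change over the 5 days was 1.62 ± 0.29 in PPARγ/+ cells (limma adjusted p = 0.00396), while in WT cells the gene was not called. With 1 added to the FPKM the PPARγ/+ value was 0.97, under 2-fold. The interaction coefficient was 1.47 ± 0.38 and did not pass (adjusted p = 0.131).

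*Fzd5*, which acts with Lrp co-receptors, stood at 1.35, 2.07 and 1.32 FPKM in WT_0d, 2.87, 3.30 and 5.04 in WT_5d, 2.37, 2.53 and 3.40 in PPARγ/+_0d and 4.37, 4.32 and 4.50 in PPARγ/+_5d. The days did not overlap within either cell type. PPARγ/+_0d lay above WT_0d, but *Fzd5* was not called on 0d (log2 fold change 0.78 ± 0.23, limma adjusted p = 0.121). It rose in WT cells by a log2 fold change of 1.18 ± 0.27 (limma adjusted p = 0.0155), which was no longer called without WT_5d replicate 3 (0.95) or with 1 added to the FPKM (0.86). In PPARγ/+ cells the value was 0.67 ± 0.14 (adjusted p = 0.00762), under 2-fold.

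*Fzd2* and *Fzd7*, receptors for Wnt ligands, were abundant and stayed under 2-fold. *Fzd2* went from 14.0, 15.4 and 16.4 FPKM in WT_0d to 24.8, 23.9 and 19.0 in WT_5d and from 15.4, 13.0 and 12.9 in PPARγ/+_0d to 17.3, 18.3 and 18.2 in PPARγ/+_5d. *Fzd7* went from 14.5, 13.2 and 13.3 FPKM in WT_0d to 13.0, 12.3 and 9.67 in WT_5d and from 12.3, 13.4 and 12.7 in PPARγ/+_0d to 8.85, 9.14 and 9.35 in PPARγ/+_5d. For both genes the days did not overlap within a cell type, and the log2 fold changes (0.55 and 0.38 for *Fzd2*, -0.49 in PPARγ/+ cells for *Fzd7*) were under 2-fold. *Fzd8* stood at 0.832, 0.592 and 0.620 FPKM in WT_0d, 0.716, 0.620 and 0.853 in WT_5d, 0.735, 1.15 and 1.23 in PPARγ/+_0d and 0.865, 0.695 and 0.531 in PPARγ/+_5d, with overlapping groups. *Fzd3* and *Fzd9* stayed at or below 0.685 and 0.540 FPKM and were not called.

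Summed over the 10 receptors, FPKM was 69.8 ± 4.72 (SD, n = 3) in WT_0d and 102 ± 10.2 in WT_5d, and 74.7 ± 1.27 in PPARγ/+_0d and 103 ± 4.95 in PPARγ/+_5d. *Fzd1* took a growing part of this pool, from 33.6% ± 4.65 to 53.3% ± 8.06 in WT cells and from 39.2% ± 4.09 to 60.3% ± 0.911 in PPARγ/+ cells. The *Fzd6* part went from 19.1% ± 2.85 to 6.55% ± 0.774 and from 18.1% ± 3.36 to 5.34% ± 0.498. Neither part overlapped between the days.

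The antagonists were led by *Sfrp2*, which was the most abundant gene of the 37 in every library, and *Sfrp1*, *Sfrp2* and *Dkk3* rose in both cell types. *Sfrp2*, a secreted Wnt-binding protein, stood at 84.5, 158 and 69.1 FPKM in WT_0d, 431, 786 and 1086 in WT_5d, 486, 391 and 489 in PPARγ/+_0d and 1463, 1507 and 1652 in PPARγ/+_5d. The days did not overlap in either cell type, PPARγ/+ was above WT on both days, and PPARγ/+_0d was already at the level of the lowest WT_5d library. With differentiation it rose by a log2 fold change of 2.88 ± 0.43 in WT cells and of 1.76 ± 0.12 in PPARγ/+ cells (limma adjusted p = 0.00335 and 8.32e-05), and the interaction coefficient of -1.12 ± 0.47 did not pass (adjusted p = 0.377). An opposite-strand gene, *Gm26771*, shares 347 exonic bases with *Sfrp2* and lay at 0.215 FPKM or less.

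*Sfrp1*, a close relative of Sfrp2, stood at 6.30, 13.5 and 5.16 FPKM in WT_0d, 13.1, 37.4 and 91.0 in WT_5d, 16.9, 14.8 and 21.5 in PPARγ/+_0d and 87.7, 87.5 and 102 in PPARγ/+_5d. The WT groups overlapped through WT_5d replicate 1, and the PPARγ/+ days were far apart. The log2 fold change was 2.39 ± 0.14 in PPARγ/+ cells (limma adjusted p = 5.35e-05) and 2.21 ± 0.72 in WT cells (adjusted p = 0.0532). The WT call was lost without WT_0d replicate 1, WT_0d replicate 3 or WT_5d replicate 2, at log2 fold changes of 2.08, 1.94 and 2.17.

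*Sfrp4*, a family member known from bone and fat tissue, stood at 1.03, 1.90 and 1.30 FPKM in WT_0d, 2.17, 3.81 and 2.40 in WT_5d, 1.14, 0.743 and 0.913 in PPARγ/+_0d and 3.27, 3.97 and 2.82 in PPARγ/+_5d. The days did not overlap in either cell type. It rose in PPARγ/+ cells by a log2 fold change of 1.75 ± 0.19 (limma adjusted p = 0.00048). In WT cells the value of 0.94 ± 0.29 (adjusted p = 0.0466) was under 2-fold, and it passed without WT_0d replicate 2, WT_5d replicate 1 or WT_5d replicate 3 (1.16, 1.09 and 1.021).

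*Dkk3*, a divergent Dkk protein that does not act as a classical Lrp blocker, stood at 2.07, 4.37 and 3.10 FPKM in WT_0d, 8.01, 12.1 and 19.9 in WT_5d, 6.03, 6.92 and 6.89 in PPARγ/+_0d and 14.7, 14.0 and 13.1 in PPARγ/+_5d. The days did not overlap, and the PPARγ/+_0d libraries lay above those of WT_0d. It rose by a log2 fold change of 2.0 ± 0.39 in WT cells and of 1.07 ± 0.08 in PPARγ/+ cells (limma adjusted p = 0.00901 and 0.000112), and with 1 in place of 0.1 added to the FPKM the PPARγ/+ value was 0.97 and not called.

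*Dkk2*, a classical Lrp-binding antagonist, stood at 1.73, 2.46 and 2.13 FPKM in WT_0d, 0.816, 1.55 and 1.14 in WT_5d, 2.10, 2.01 and 3.12 in PPARγ/+_0d and 2.64, 3.68 and 7.25 in PPARγ/+_5d. WT_5d was below WT_0d without overlap, whereas in PPARγ/+ cells the days overlapped and replicate 3 of 5d stood alone at the top. Over the 5 days the log2 fold change was -0.83 ± 0.26 in WT cells (limma adjusted p = 0.0457), under 2-fold, and *Dkk2* was not called in PPARγ/+ cells (adjusted p = 0.122). Without WT_5d replicate 2 the WT value passed, at -1.04, and without PPARγ/+_5d replicate 1 the PPARγ/+ value passed, at 1.1. The interaction coefficient was 1.61 ± 0.48 and did not pass (adjusted p = 0.181).

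With FPKM summed over the Sfrp genes, WT_0d held 91.8, 173 and 75.5, WT_5d 446, 828 and 1179, PPARγ/+_0d 505, 407 and 512, and PPARγ/+_5d 1554, 1598 and 1757. Every PPARγ/+ library of a day was above every WT library of that day. *Sfrp2* made up 91.1% to 96.6% of this sum in each library. On the same per-length scale, the Sfrp sum was above the summed ligands in every library, and above the summed receptors too.

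PPARγ/+ was compared with WT on either day, and a gene passed where its p-value adjusted over all genes was 0.05 or less and its fold change at least 2. On 0d, 2 of the 24 members tested passed, beside 1.59% of all genes tested (287 of 18023). They were *Sfrp2*, which was higher in PPARγ/+ (65 genes or 0.361% were higher), and *Wnt7b*, which was lower (222 genes or 1.23% were lower). For *Sfrp2* the log2 fold change was 2.22 ± 0.31 (limma adjusted p = 0.0248), with the range of 391 to 489 FPKM in PPARγ/+_0d above the 69.1 to 158 FPKM in WT_0d. Its direction stayed the same when any library was left out, at 1.97 to 2.57, while the adjusted threshold was missed without WT_0d replicate 1 or 3 or without any one of the PPARγ/+_0d libraries (2.12, 1.97, 2.17, 2.33 and 2.16). *Dkk3* and *Sfrp1* were also higher in each PPARγ/+_0d library than in each WT_0d library (log2 fold change 1.09 and 1.20), at limma adjusted p = 0.0794 and 0.137. *Wnt10a* was lower in each, at -0.88 (adjusted p = 0.0572), and it passed without WT_0d replicate 1, at -1.07.

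**Figure D4:**
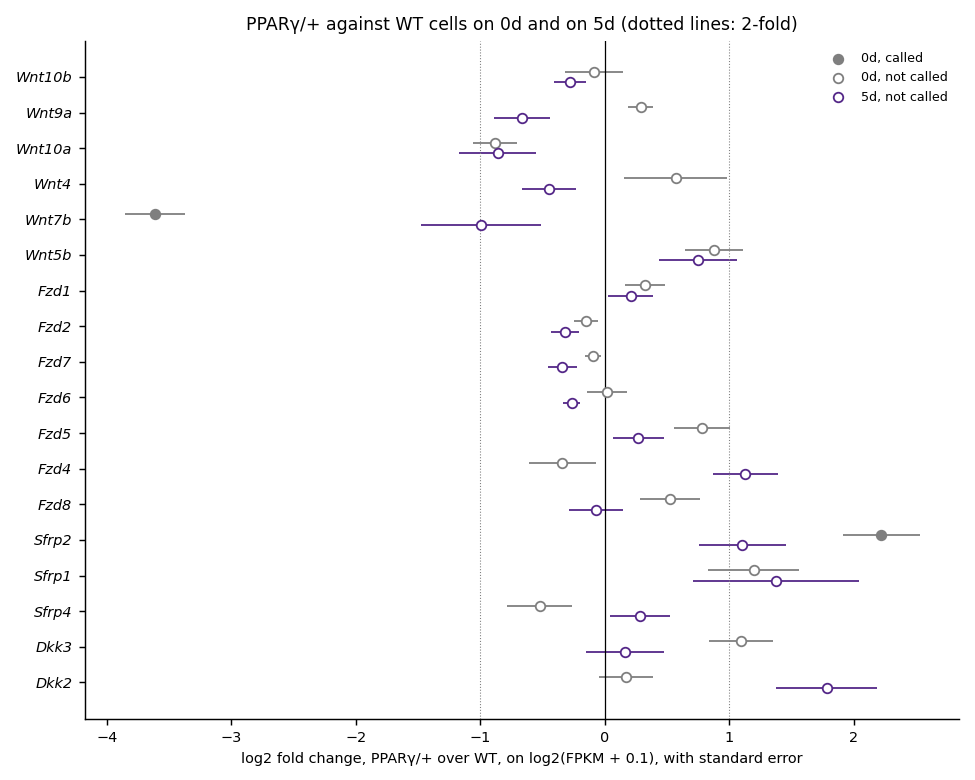
Log2 fold change of PPARγ/+ over WT (horizontal axis, on log2(FPKM + 0.1), with the standard error) of the 18 genes on 0d (grey) and 5d (purple), where filled points passed the threshold. On 0d *Wnt7b* at -3.62 and *Sfrp2* at 2.22 are filled, and no gene is on 5d.

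On 5d, none of the 24 genes tested passed in limma, beside 0.155% of all genes tested (28 of 18023, with 0.0943% higher and 0.061% lower). With unadjusted p-values up to 0.05, 8 of the 24 genes tested passed, beside 12.7% of all genes (2281 of 18023), and 3 of them had a fold change of at least 2, beside 3.36% (606 genes). These were *Dkk2*, *Fzd4* and *Sfrp2*, all higher in PPARγ/+, with log2 fold changes of 1.78 ± 0.41, 1.13 ± 0.26 and 1.1 ± 0.35 (limma adjusted p = 0.183, 0.191 and 0.301). limma-voom on recovered fragments called 0 as well. Array weights, whose fit did not reach its convergence tolerance, called *Fzd4* and *Sfrp2* as higher (1.29 and 1.07) and *Wnt10a* as lower (-1.03). The share of all genes was then 2.79%. With all 12 libraries in 1 fit, *Dkk2* was called as higher (1.78), beside 1.1% of all genes. Without WT_5d replicate 3, 4 of the 24 genes tested were called, while the share of all genes went up to 4.01% (723 genes). They were *Sfrp2* and *Wnt5b* as higher (1.40 and 1.07) and *Wnt10a* and *Wnt7b* as lower (-1.21 and -1.48). A value that misses the threshold here does not show that the cell types were alike, since the WT_5d libraries were widely spread.

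The interaction of cell type and day asked whether the change over 5 days differed between the cell types. None of the 24 genes tested passed an adjusted p-value of 0.05 in limma or in limma-voom. Among all genes the share in limma was 0.76% (137 of 18023, with 0.583% above 0 and 0.178% below). Array weights called 5 (*Wnt7b*, *Fzd4*, *Fzd7*, *Sfrp2* and *Wnt9a*), beside 11.5% of all genes. Adding 1 to the FPKM called *Wnt7b*, beside 0.743%. In limma 7 of the 24 had an unadjusted p-value of at most 0.05 (*Wnt7b*, *Fzd4*, *Wnt9a*, *Dkk2*, *Sfrp2*, *Sfrp4* and *Dkk3*), beside 12% of all genes (2164 of 18023). The nearest was *Wnt7b*, at a coefficient of 2.62 ± 0.57 (limma adjusted p = 0.0696), which passed without WT_5d replicate 1 (3.02) or without WT_5d replicate 3 (2.13). In PPARγ/+ cells *Wnt7b* was already close to the detection limit on 0d (3, 5 and 2 fragments), so a fall like that in WT could not show there. Its log2 fold change in PPARγ/+ cells was -0.14. Thus the change over 5 days was not shown to differ between the cell types for the genes called in only 1 of them. These were *Fzd5* and *Wnt7b* in WT and *Fzd4*, *Fzd6*, *Sfrp4* and *Wnt4* in PPARγ/+. The level of *Wnt7b* on 0d did differ.

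Within a 5d group, some members had the order of the muscle or adipocyte markers over its 3 libraries, or the reverse order. In WT_5d replicates 1, 2 and 3, *Myh3*, an embryonic myosin of new myotubes, was at 527, 307 and 87.9 FPKM and *Ckm*, the muscle creatine kinase, at 67.8, 39.2 and 12 FPKM. *Sfrp1* at 13.1, 37.4 and 91.0 FPKM, *Sfrp2* at 431, 786 and 1086, *Dkk3* at 8.01, 12.1 and 19.9 and *Fzd1* at 42.4, 52.5 and 69.8 had the opposite order, while *Wnt9a* and *Wnt10a* had the same order as the markers. WT_5d replicate 3, with the lowest muscle markers, was also the WT library nearest to PPARγ/+_5d for *Sfrp1* and *Sfrp2*. In PPARγ/+_5d replicates 1, 2 and 3, *Adipoq*, the fat cell hormone adiponectin, was at 8.03, 12.7 and 40.5 FPKM, *Cfd* at 0.313, 1.11 and 12.3 and *Pparg* at 40.1, 44.1 and 92.7. *Dkk2* at 2.64, 3.68 and 7.25 FPKM and *Fzd4* at 1.90, 2.04 and 3.26 had the same order. So did *Sfrp2* (1463, 1507 and 1652 FPKM), *Fzd1* (58.1, 62.6 and 65.9), *Fzd7* (8.85, 9.14 and 9.35) and *Wnt5b* (1.05, 1.23 and 1.28). *Dkk3* (14.7, 14.0 and 13.1 FPKM), *Wnt10a* (6.31, 5.20 and 4.80) and *Wnt10b* (14.7, 14.5 and 14.3) had the reverse order. *Fzd6* (5.70, 5.57 and 5.21 FPKM) and *Fzd8* (0.865, 0.695 and 0.531) had the reverse order too. The muscle marker sums of these libraries had the same order as the adipocyte markers (971, 1107 and 1135 FPKM). Among the members named for WT_5d, *Sfrp2* and *Fzd1* went with the muscle markers in PPARγ/+_5d and against them in WT_5d. *Wnt10a* did the opposite, *Dkk3* went against them in both groups, and *Sfrp1* and *Wnt9a* had neither order in PPARγ/+_5d. With 3 libraries only a few orders are possible, and the share of all genes with such an order was not computed. The part of these markers in the results was not tested. Without PPARγ/+_5d replicate 3, 11 of the 24 genes tested were called in PPARγ/+ cells, beside 15% of all genes tested (2697). Without WT_5d replicate 3, 10 were called in WT cells, beside 17% (3057).

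**Figure D5:**
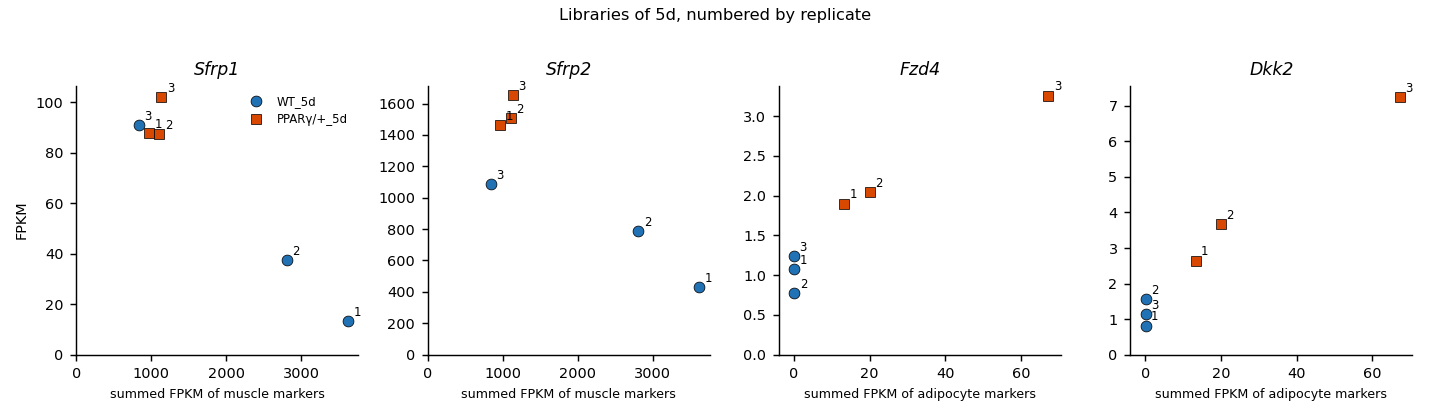
FPKM of *Sfrp1* and *Sfrp2* against the summed FPKM of 7 muscle markers, and of *Fzd4* and *Dkk2* against that of 6 adipocyte markers, in the 6 libraries of 5d, numbered by replicate. *Sfrp1* and *Sfrp2* are lowest in the WT library with the most muscle marker RNA (3621 FPKM), while within PPARγ/+_5d *Sfrp2* has the same order as the muscle sum. *Fzd4* and *Dkk2* are highest in the PPARγ/+ library with the most adipocyte marker RNA (67.2 FPKM).

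The other genes of the pathway were read from lists of ligand handling, co-receptors, R-spondins, core, targets and the β-catenin independent branch. Between the cell types on one day, and in the interaction, none of them passed. The shares of all genes were 1.59% on 0d, 0.155% on 5d and 0.76% for the interaction. From 0d to 5d, 8.94% of all genes tested rose and 7.53% fell in WT cells. In PPARγ/+ cells 9.11% rose and 6.06% fell. Of the 3 genes of ligand processing, *Porcn*, the acyltransferase that lipidates Wnt proteins, rose in both cell types, from 3.11, 4.85 and 4.74 FPKM in WT_0d to 71.6, 58.4 and 33.3 in WT_5d and from 4.14, 4.39 and 4.63 in PPARγ/+_0d to 19.4, 21.1 and 19.3 in PPARγ/+_5d. Its log2 fold change was 3.61 ± 0.31 and 2.16 ± 0.07 (limma adjusted p = 0.000534 and 1.53e-05), the largest of the list in each cell type. *Notum*, which removes the lipid, fell in PPARγ/+ cells (-1.42 ± 0.17), and *Wls*, the carrier for secretion, was not called.

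Of 6 co-receptors and other receptors, *Ror1*, a receptor for Wnt5-type ligands, rose in both cell types (log2 fold change 2.14 ± 0.36 and 1.69 ± 0.13, limma adjusted p = 0.00527 and 0.000141). It stood at 0.447, 1.05 and 0.472 FPKM in WT_0d, 2.24, 3.02 and 4.14 in WT_5d, 1.17, 1.26 and 1.49 in PPARγ/+_0d and 4.69, 4.76 and 3.87 in PPARγ/+_5d. *Lrp5*, *Lrp6*, *Ror2*, *Ryk* and *Ptk7* were not called in either cell type. Of 7 further secreted antagonists and Dkk receptors, only *Kremen1* passed the filter, and it was not called. In the R-spondin branch (9 genes, 6 tested), *Lgr6* fell in both cell types (-2.24 ± 0.29 and -3.09 ± 0.44), and in WT cells *Lgr4* fell (-1.1 ± 0.19) while *Rspo2* (1.15 ± 0.42, limma adjusted p = 0.0751) and *Lgr5* rose.

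None of the 13 core genes, among them *Ctnnb1*, which encodes β-catenin, and *Gsk3b*, passed 2-fold in either cell type. Among 14 common targets of β-catenin signalling (11 tested), the feedback inhibitor *Nkd2* rose in both cell types (2.14 ± 0.26 and 1.09 ± 0.14) and the cell cycle gene *Ccnd1* fell in both (-1.78 ± 0.12 and -1.26 ± 0.21). *Lgr5* rose in WT cells, and in PPARγ/+ cells *Nkd1* rose and *Notum* fell, while the standard reporter gene *Axin2* was not called. In the planar polarity and calcium list (15 genes, 11 tested) none fell, 4 rose in WT cells and 3 in PPARγ/+ cells. *Camk2a*, a calcium-dependent kinase (3.71 ± 0.50 and 3.30 ± 0.18), *Daam2*, a formin that binds Dishevelled (3.09 ± 0.23 and 2.20 ± 0.16), and *Prickle1*, a planar polarity protein (1.18 ± 0.23 and 1.04 ± 0.31), rose in both.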

How the data were processed

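RNA of the 12 libraries was prepared with an Illumina TruSeq RNA kit and sequenced in pairs. After trimming (Trim Galore) and alignment (STAR, to GRCm38 by the study's methods and mm9 by the submitters' processing notes), fragments on Ensembl genes were counted with HTSeq, and the authors deposited FPKM per gene, the values used here. A second deposited table holds the same values on a log2 scale and was not used. The kit does not mark strand, so antisense genes cannot be told apart where exons overlap. Gene positions are from GENCODE M21 (GRCm38).

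The members, further gene lists and tests were chosen with earlier results of these data known. Members follow the symbol rule. Values in every library are given for genes with a group mean of at least 1 FPKM or called in a comparison. Of the further lists, up to 3 called genes with the largest change per comparison and at least 1 FPKM are named with values.

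Fragments were recovered from the steps of the FPKM values. All 27138 genes above 0 gave whole numbers within 0.02, 21320 with the annotated exonic length and 5818 with an inferred length, which gives whole numbers by construction. Tests used limma 3.58.1 in R 4.3.3 (empirical Bayes with trend) on log2(FPKM + 0.1), which understates the change of low genes. The comparisons of 2 groups used their 6 libraries and the interaction all 12, with Benjamini-Hochberg adjustment over all 18023 genes. The study's thresholds (p of at most 0.05 and 2-fold) were used from 0d to 5d. The fits were tested on simulated data. Alternatives were other values added to the FPKM, filters, scalings, array weights, a replicate block, other thresholds, 1 fit of all libraries and leaving out each library. limma-voom on the recovered fragments was chosen after seeing the data. Intervals and floors cover counting error only. Promoters are from RefSeq, GRCm38.p6.

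Tables were made with Python 3.11.15.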

Additional observations from a re-analysis of the deposited data

How the results depend on the processing

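Shares in brackets are those of all genes tested under the same setting. Of the 37 genes, 24 passed the filter used here, and the number called from 0d to 5d was 9 in WT cells (16.5%). It was 6 to 12 over the alternatives (8% to 19.8%) and 8 to 12 without 1 library (15.3% to 17%). In PPARγ/+ cells it was 11 (15.2%), with 9 to 12 without 1 library (14.1% to 15.7%) and 7 with 1 in place of 0.1 added (6.89%). On 0d it was 2 (1.59%), with 1 without a filter (0.394%), 4 in limma-voom (2.69%), 4 with unadjusted p-values (3.67%) and 1 to 2 without 1 library (0.305% to 0.76%). On 5d it was 0 (0.155%), with 3 under array weights (2.79%), 1 with all 12 libraries in 1 fit (1.1%), 3 with unadjusted p-values (3.36%) and 0 to 4 without 1 library (0.00555% to 4.01%). For the interaction it was 0 (0.76%), with 1 when 1 was added to the FPKM (0.743%), 5 under array weights (11.5%), 7 with unadjusted p-values (12%) and 0 to 2 without 1 library (0.233% to 2.92%). Of the 120 pairs of a gene and a comparison tested, the 58 that were called in any setting, or had an unadjusted p-value up to 0.05 in the reported one, were followed over the alternatives, and 0 of these were reversed. The cause of these shifts was not tested.

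Over all genes, adding 1 gave 1441 calls in WT cells, 1241 in PPARγ/+ cells, 115 on 0d and 8 on 5d, and adding 0.01 gave 71 on 5d. A filter at 1 FPKM gave 1806 in PPARγ/+ cells, and no filter gave 107 on 0d. limma-voom gave 485 on 0d, and 1 fit of all libraries 199 on 5d. Array weights gave 502 on 5d and 2070 for the interaction, and unadjusted p-values gave 661, 606 and 2164 on 0d, on 5d and for the interaction. The fit of the array weights reported that its convergence tolerance was not achievable, and this alternative was kept. Without 1 library the counts were 55 to 137 on 0d, 1 to 723 on 5d (723 without WT_5d replicate 3) and 42 to 527 for the interaction. Median-ratio scaling moved the median of all genes from -0.08 to 0.02 in WT cells and from -0.10 to 0.02 in PPARγ/+ cells.

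With the replicate number as a block, 0 of the 24 genes tested and 0 of all genes were called on 0d, 0 genes on 5d and 61 for the interaction. The deviations of same-numbered libraries from their group means, over all genes tested, had correlations from -0.0679 to 0.0834 (18 pairs). Whether same-numbered libraries shared a culture or a preparation was not tested.

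The 3 libraries a group and the spread of WT_5d limit the comparisons on 5d.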
